A study of Mus musculus with 8 samples.

Results

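The S100 genes of *Megf10* KO and WT soleus are described here. They are 10 genes, taken by symbol from a named set (*S100a1*, *S100a4*, *S100a6*, *S100a8*, *S100a9*, *S100a10*, *S100a11*, *S100a13*, *S100a16* and *S100b*), and all 10 were present among the 16382 named genes of the files. Poly(A)-selected RNA from whole soleus, frozen at dissection, was sequenced from female mice at 7 months of age. *Megf10* KO mice (*Megf10* -/-, n = 4 libraries) were homozygous for the tm1b(KOMP)Jr allele, which removes the fourth exon in every cell of the body. WT mice (n = 4 libraries) carried no deletion. Each library is 1 mouse by the study's definition of a replicate. At which of the study's sites these mice were raised is not given in the sources used here. MEGF10 is a cell surface receptor of satellite cells and glia, and its loss in people causes a muscle disease. The comparison addresses which transcripts of the soleus differ when *Megf10* is absent.

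S100 proteins are small calcium sensors of the EF-hand type that work mostly as dimers. On binding calcium they expose a surface that grips target proteins such as annexins, myosins, ion channels and the calcium pumps of muscle. Some are also released by stressed or dying cells and by neutrophils and macrophages, and act on receptors such as AGER (RAGE) and TLR4. In muscle, S100A1 is the family member of the fiber itself, S100B marks the Schwann cells of nerves, and S100A4, S100A6, S100A10 and S100A11 are typical of fibroblasts, macrophages and vessel walls.

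Of the 10 S100 genes, 3 were higher in *Megf10* KO than in WT soleus (8.95% of all genes were called in either direction), 0 were lower (0 also at an unadjusted p under 0.05), and 7 did not pass the test (limma on log2(normalized count + 1), Benjamini-Hochberg adjusted p under 0.05 over all genes). *S100a4* had the largest difference, about 2.01 times the WT mean, followed by *S100a10* at 1.57 times and *S100a6* at 1.34 times. Across all 16382 genes, 5.16% were called higher (845 genes) and 3.79% lower (621 genes). In 5 of the 10 S100 genes every KO library lay above every WT library, where 8.63% of all genes had this order and 8.54% the opposite one, which no S100 gene had. The log2 fold change of KO over WT (LFC) was above 0 for 8 of 10, with a median of 0.29, beside a median of -0.01 over all genes. Since RNA came from whole muscle, more or fewer cells of a type and more or less RNA per cell cannot be told apart.

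**Figure D1:**
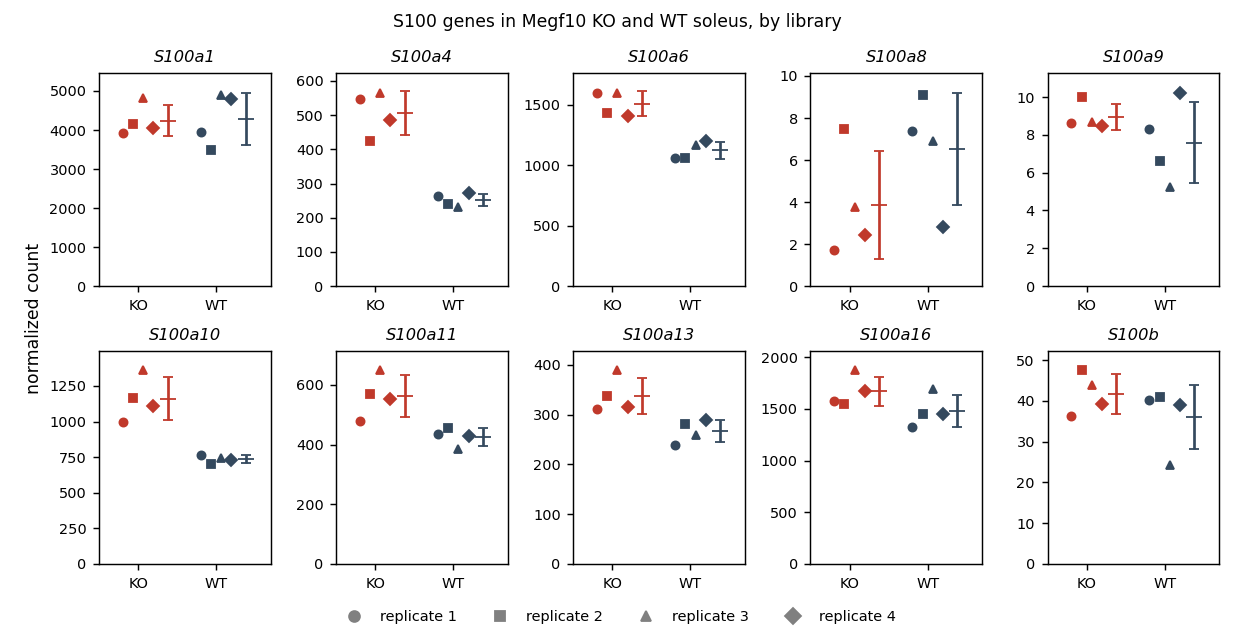
Normalized counts of the 10 S100 genes (linear axes from 0, 1 panel per gene) in *Megf10* KO (red, left) and WT (blue, right) soleus, 1 symbol per library, with the mean and SD beside them. For *S100a4*, *S100a6*, *S100a10*, *S100a11* and *S100a13* all 4 KO libraries sit above all 4 WT libraries, and for the other 5 genes the genotypes overlap.

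*S100a4*, also called fibroblast-specific protein, binds non-muscle myosin and is linked to cell motility. It had 546, 423, 566 and 486 normalized counts across KO replicates 1 to 4, against 264, 241, 232 and 271 in WT replicates 1 to 4. Even the lowest KO library, replicate 2, was well above the highest WT library, replicate 4. The means were 505 ± 64.4 in KO and 252 ± 18.6 in WT (SD, n = 4 each), an LFC of 1.00 (SE 0.119, limma adjusted p = 0.00158), and the gene ranked 57 of 16382 by p-value. An exact two-sided permutation test over the 8 libraries gave p = 0.0286, the smallest value that 4 against 4 libraries allow. In the GENCODE M21 transcripts, 49.2% of the 31-base stretches of *S100a4* (272 of 553) also occur, read in the same direction, in *Gm42674*. That gene model is not a row of the tables, so reads of these 2 models may have been divided.

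*S100a10*, known as p11, has lost calcium binding in its EF hands and pairs with annexin A2 at the plasma membrane. Its levels were 997, 1169, 1359 and 1112 normalized counts across KO replicates 1 to 4, against 764, 702, 746 and 733 in WT. The WT libraries lay close together, while KO replicate 3 was the highest and KO replicate 1 the nearest to WT. The KO mean was 1159 ± 151 and the WT mean 736 ± 26.2 (SD, n = 4 each), with an LFC of 0.65 (SE 0.0969, limma adjusted p = 0.00400).

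*S100a6*, or calcyclin, is a calcium sensor of fibroblasts and proliferating cells that binds CACYBP and annexins. KO replicates 1 to 4 had 1599, 1434, 1602 and 1404 normalized counts, against 1058, 1063, 1166 and 1203 in the WT replicates. KO replicates 1 and 3 were the highest, and the lowest KO library still exceeded the highest WT library. Means of 1509.7 ± 105 in KO and 1123 ± 73.2 in WT (SD, n = 4 each) gave an LFC of 0.43 (SE 0.0787, limma adjusted p = 0.00934).

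*S100a11*, a partner of annexin A1 in membrane contacts, and *S100a13*, which takes part in the release of FGF1 from cells, had separate genotypes without passing the test. *S100a11* had 478, 568.5, 648 and 551 normalized counts across KO replicates 1 to 4, against 435, 455, 383 and 428 in WT, an LFC of 0.39 (SE 0.111, limma adjusted p = 0.0517). The lowest KO library, replicate 1, was just above the highest WT library, replicate 2. Without KO replicate 1 the adjusted p of *S100a11* from limma was 0.0330, and over the 8 fits that leave out 1 library it ran up to 0.137. *S100a13* had 311, 338, 389 and 315 normalized counts across the KO replicates, against 239, 281, 260.0 and 289 in WT, an LFC of 0.34 (SE 0.118, limma adjusted p = 0.101). The exact two-sided permutation p of either gene was 0.0286, the smallest possible, which 8 libraries can give to any gene with separate groups. For *S100a11*, 48.9% of 31-base stretches (235 of 481) occur in transcripts of processed pseudogenes, so its reads may have been shared with them. Of these, *Gm12854* is a row of the tables and averaged 11.2 ± 7.07 normalized counts in KO, against 13.4 ± 8.06 in WT (SD, n = 4 each).

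Of the 10 S100 genes, 9 lie on chromosome 3, in the order *S100a1*, *S100a13*, *S100a16*, *S100a4*, *S100a6*, *S100a8*, *S100a9*, *S100a11* and *S100a10* in RefSeq, and *S100b* lies on chromosome 10. The 250 bases before the transcription start are given from RefSeq (GRCm38.p6, plus strand, chromosome 3) for 3 of them, because *S100a4* and *S100a6* were called higher in *Megf10* KO soleus and *S100a11* was the next gene by p-value. The windows are chr3:90603520-90603769 for *S100a4*, chr3:90612644-90612893 for *S100a6* and chr3:93520246-93520495 for *S100a11*. Capitals mark letters that match a motif on either strand. The TATA box was searched as TATAAA and the CCAAT box by the letters of its name, which read ATTGG on the opposite strand. The GC box was searched as GGGCGG. The AP-1 site was searched as TGANTCA, where N is any base.
S100a4: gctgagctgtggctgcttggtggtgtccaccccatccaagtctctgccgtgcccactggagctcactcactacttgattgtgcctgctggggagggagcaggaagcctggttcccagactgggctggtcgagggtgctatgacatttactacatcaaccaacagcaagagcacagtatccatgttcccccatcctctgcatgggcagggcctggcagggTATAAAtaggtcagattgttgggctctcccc
S100a6: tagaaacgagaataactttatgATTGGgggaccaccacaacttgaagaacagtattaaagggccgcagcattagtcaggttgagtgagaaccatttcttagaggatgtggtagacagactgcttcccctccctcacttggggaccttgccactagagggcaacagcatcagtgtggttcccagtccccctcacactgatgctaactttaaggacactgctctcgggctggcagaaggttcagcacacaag
S100a11: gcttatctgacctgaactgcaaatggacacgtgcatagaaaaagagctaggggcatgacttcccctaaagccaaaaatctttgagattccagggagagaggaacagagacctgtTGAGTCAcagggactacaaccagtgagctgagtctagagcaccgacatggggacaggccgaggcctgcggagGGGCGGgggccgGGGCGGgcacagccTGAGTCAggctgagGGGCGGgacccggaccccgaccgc
The 3 sequences share no marked motif. *S100a4* has 1 TATA box letter run, 31 bases before the start, and *S100a6* has 1 CCAAT run, 228 bases before it. *S100a11* has 3 GC box runs, 64, 52 and 24 bases before the start, and 2 AP-1 runs, 136 and 38 bases before it. The E-box, searched as CANNTG, was not marked. *S100a6* has 1 such run, 117 bases before the start, *S100a11* has 2, 231 and 223 bases before it, and *S100a4* has none. Among 32851 RefSeq promoter entries of the same length, 12.4% held TATAAA, 33.9% CCAAT, 32.7% GGGCGG, 6.75% TGANTCA and 66.2% CANNTG. These matches are letters only and say nothing of binding. Of the 10 genes, 9 had a promoter entry, and *S100a10* was not matched.

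**Figure D2:**
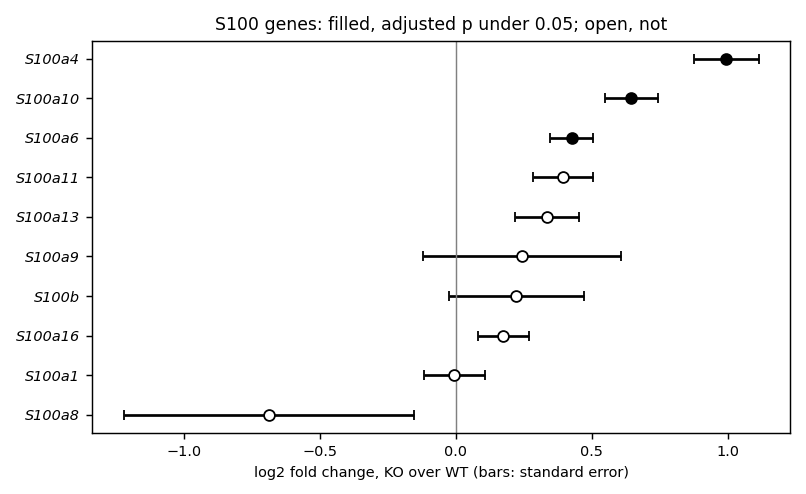
Log2 fold change (KO over WT) of each S100 gene, ordered by size, with bars of 1 standard error from limma. Filled points are the 3 genes with an adjusted p under 0.05 (*S100a4* 1.00, *S100a10* 0.65, *S100a6* 0.43), and open points are the 7 that did not pass, *S100a8* with the widest bar.

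*S100a1*, which binds the ryanodine receptor and the SERCA pump of muscle fibers, was the most abundant S100 transcript. It had 3929, 4159.5, 4816 and 4049 normalized counts across KO replicates 1 to 4, against 3956, 3488, 4886 and 4802 in WT. The genotypes covered the same range, and the highest and the lowest library were both WT. Means were 4238 ± 396 in KO and 4283 ± 676 in WT (SD, n = 4 each), an LFC of -0.01 (SE 0.112, limma adjusted p = 0.982) whose sign turned with small changes of scaling or libraries. *S100a16*, a broadly expressed family member, had 1579.6, 1551, 1872 and 1671 normalized counts across the KO replicates, against 1321, 1454, 1696 and 1447 in WT. KO replicate 3 was highest, and WT replicate 3 lay above 3 of the KO libraries, so the genotypes overlapped. Its LFC was 0.18 (SE 0.0922, limma adjusted p = 0.266). *S100a1* and *S100a13* are annotated head to head on opposite strands. Neither shared a stretch of the length used above for *S100a4* with the transcripts of any other gene, on either strand. Whether the libraries kept the strand is not given in the sources used here.

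*S100b*, the Schwann cell member, was low, with 36.2, 47.5, 43.8 and 39.2 normalized counts across KO replicates 1 to 4, against 40.3, 40.9, 24.4 and 39.0 in WT. WT replicate 3 was far below the other libraries of either genotype. The LFC was 0.22 (SE 0.248, limma adjusted p = 0.623), and it was 0.05 without WT replicate 3. Of 10 Schwann cell markers, 9 were measured (*Gfap* was not a row of the tables), 1 was lower in KO (*Prx*, a myelin protein, LFC -0.53) and none higher, and their summed level was 3180 to 3905 in KO and 3230 to 4273 in WT. At an unadjusted p under 0.05 from limma 3 of the 9 were lower and none higher, and the share of all genes at that threshold was not counted.

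*S100a8* and *S100a9* encode the subunits of calprotectin, the abundant cytosolic complex of neutrophils, which is also a ligand of TLR4 and AGER. Both were near the lower end of what was measured. *S100a8* had 1.73, 7.49, 3.77 and 2.41 normalized counts across KO replicates 1 to 4, against 7.37, 9.09, 6.90 and 2.79 in WT, which is about 2 to 6 reads in KO libraries and 3 to 11 in WT libraries. The genotypes overlapped, with an LFC of -0.69 and an SE of 0.534 (limma adjusted p = 0.461). *S100a9* had 8.64, 9.99, 8.70 and 8.46 normalized counts across the KO replicates, against 8.30, 6.61, 5.22 and 10.2 in WT, with an LFC of 0.24 (SE 0.366, limma adjusted p = 0.726). Of 10 neutrophil markers only *Ltf*, *Cxcr2* and *Csf3r* were rows of the tables, none was called (0 also at an unadjusted p under 0.05), and their summed level was 33.1 to 60.8 in KO and 29.6 to 40.1 in WT. The defining genes *Ly6g*, *Retnlg*, *Camp*, *Ngp*, *Mpo*, *Elane* and *Mmp8* were not among the rows.

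Beyond the 10 genes, 2 more family members were in the files, *S100a3* and *S100a7a*, both very low. *S100a3*, known from hair follicles, had 7.70, 1.52, 6.11 and 9.45 normalized counts across KO replicates 1 to 4, against 1.90, 0, 1.06 and 1.13 in WT. KO replicate 2 lay within the WT range and the other KO libraries above it (LFC 1.75, SE 0.631, limma adjusted p = 0.111). *S100a7a* stood at 29.8 normalized counts in KO replicate 2 but at 4.11 to 5.03 in its 3 KO partners, against 3.57 to 6.04 in WT. *S100pbp*, which encodes a protein that binds S100 proteins, averaged 229 ± 29.0 normalized counts in KO, against 307 ± 47.1 in WT (SD, n = 4 each), with an LFC of -0.42 (limma adjusted p = 0.103).

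Levels can be set between genes only per length, so normalized counts were divided by the length of each gene's principal coding transcript in GENCODE M21. On this scale, in normalized counts per kilobase, *S100a1* led in both genotypes, with means of 6260.2 in KO and 6326 in WT. *S100a6* was the second in both, with 2065 in KO and 1536 in WT. *S100a10* came next in KO, at 1692, with *S100a16* behind it at 1481, whereas in WT *S100a16*, at 1313, stood above *S100a10*, at 1075. In KO the ranges of *S100a6* and *S100a10*, and of *S100a10* and *S100a16*, overlapped across libraries, although within each of the 4 libraries the first was above the second. The ranges of *S100a11* and *S100a4* overlapped as well, and *S100a11* was above *S100a4* in 3 of the 4 KO libraries. In WT the overlapping neighbours were *S100a6* with *S100a16* and *S100b* with *S100a9*, each with the first above the second in all 4 libraries, and *S100a9* with *S100a8*, with *S100a9* above in 2 of 4. *S100a11* averaged 1099 per kilobase in KO and 833 in WT, *S100a4* 1015 in KO and 506 in WT, and *S100a13* 473 in KO and 374 in WT. *S100b*, *S100a9* and *S100a8* were far lower, at 28.1, 17.2 and 7.92 per kilobase in KO, against 24.3, 14.6 and 13.5 in WT.

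The libraries were not alike within a genotype. KO replicate 3 was the highest KO library for 7 of the 10 S100 genes and KO replicate 2 for the other 3, while KO replicate 1 was the lowest for 6. Normalized counts of the 10 genes summed to 9485, 9709, 11308 and 9639 in KO replicates 1 to 4, against 8094, 7740.0, 9406 and 9225 in WT. The sum was highest in KO replicate 3, and KO replicate 1 was only just above WT replicate 3. Without *S100a1*, which made up 42.2% of the KO sum and 49.5% of the WT sum on average, the other 9 genes summed to 5797 ± 464 in KO and 4333 ± 171 in WT (SD, n = 4 each).

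Across the series, *Megf10* itself had 1.55, 7.76, 1.12 and 11.1 normalized counts across KO replicates 1 to 4, against 57.1 to 70.04 in WT, so every library stood on the side its label gives. The depth, read from the spacing of low values, was about 26.0, 26.4 and 26.2 M reads in KO replicates 2, 3 and 4, 37.8 M in KO replicate 1 and 36.7 to 41.5 M in WT, so depth and genotype went together. *Pvalb*, the EF-hand calcium buffer of fast fibers, had 4510.2, 11003, 12336 and 1867 normalized counts across KO replicates 1 to 4, against 1705 to 6535 in WT, which sets KO replicates 2 and 3 apart. Markers of the soleus fiber were present in all 8 libraries, where 1 of 8 was higher (*Tnni1*) and 2 were lower (*Ckm* and *Myh2*) in KO.

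With KO replicates 2 and 3 both left out, *S100a4* passed (LFC 1.03, limma adjusted p = 0.0215) and *S100a10* (0.52, adjusted p = 0.0558) and *S100a6* (0.42, adjusted p = 0.0901) did not. Then 0.739% of all genes were called higher. With depth as a covariate none of the 10 S100 genes passed, where 0.269% of all genes were called higher at the same adjusted threshold. At an unadjusted p under 0.05 from limma 3 of the 10 were higher, and the share of all genes at that threshold was not counted. Log2 depth and genotype had a correlation of -0.79. In this fit the standard errors over all genes were a median of 1.68 times those of the fit as reported. The LFCs were then 1.07 for *S100a4* (limma adjusted p = 0.0678), 0.51 for *S100a6* (adjusted p = 0.152) and 0.43 for *S100a10* (adjusted p = 0.234). With any single library left out, all 3 genes passed (adjusted p = 0.00219 to 0.00856 for *S100a4*, 0.00379 to 0.0129 for *S100a10* and 0.0157 to 0.0377 for *S100a6*, from limma). With library size as the sole scaling 5 S100 genes were called, *S100a11* (limma adjusted p = 0.0287) and *S100a13* (adjusted p = 0.0482) added to the 3.

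**Figure D3:**
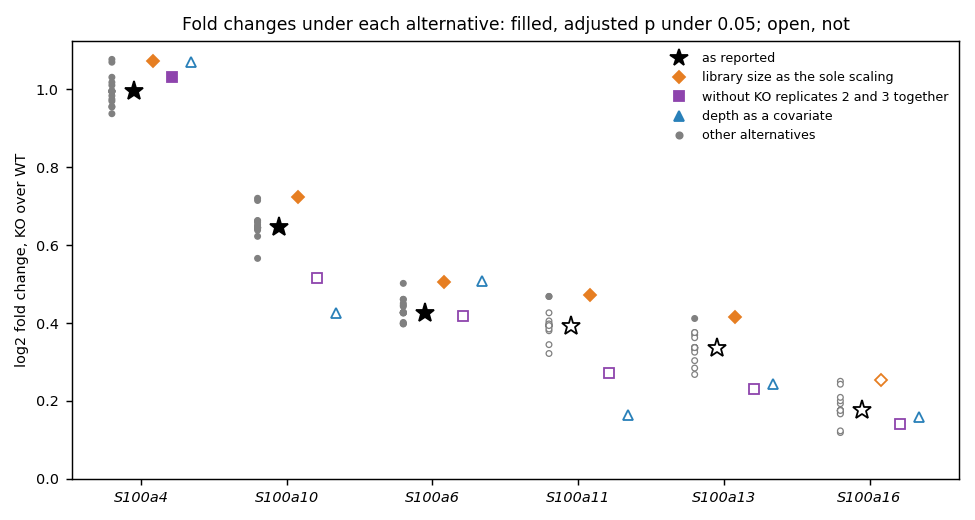
Log2 fold change (KO over WT, axis from 0) of 6 S100 genes under the fit as reported (star), library size as the sole scaling (diamond), KO replicates 2 and 3 left out together (square), depth as a covariate (triangle) and the other alternatives (small grey points), filled where the adjusted p was under 0.05. All points lie above 0, *S100a4* loses its call only with the depth covariate, and *S100a10* and *S100a6* lose theirs with that covariate and without the 2 KO libraries.

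Known partners of S100 proteins were read from the same fit, 40 genes in groups by role, and all 40 were measured. In KO 9 were higher, 5 were lower and 26 did not pass, with a median LFC of 0.14. Over all genes 5.16% were called higher and 3.79% lower, with a median LFC of -0.01. The same shares stand beside the counts of each partner group below. Without KO replicates 2 and 3 together 2 were higher and 1 was lower (121 and 43 of all 16382 genes). With depth as a covariate 1 was higher and 1 lower (44 and 14 of all genes). With library size as the sole scaling 11 partners were higher and 3 lower, and with quantile normalization 11 and 2. The annexins, calcium-dependent membrane binding proteins that S100A10, S100A11 and S100A6 hold together, had 3 of 5 members higher and 1 lower. *Anxa2*, the partner of S100A10, had 2167, 2288, 3107 and 2745 normalized counts across KO replicates 1 to 4, against 1542, 1543, 1723 and 1888 in WT. All KO libraries exceeded all WT libraries, and KO replicate 3 was the highest, as it was for *S100a10* (LFC 0.61, SE 0.118, limma adjusted p = 0.0111). The ratio of *S100a10* to *Anxa2* normalized counts, not per length, was 0.405 to 0.511 in KO and 0.388 to 0.495 in WT, so it overlapped. *Anxa1*, the partner of S100A11, averaged 1271 ± 185 normalized counts in KO, against 848 ± 67.7 in WT (SD, n = 4 each; LFC 0.58, limma adjusted p = 0.00947). *Anxa5*, which covers exposed phosphatidylserine, had an LFC of 0.66 (limma adjusted p = 0.00811). *Anxa11*, a partner of S100A6, was lower in every KO library, with 3801 ± 248 normalized counts in KO, against 4609.8 ± 159 in WT (SD, n = 4 each; LFC -0.28, limma adjusted p = 0.0212). The call on *Anxa11* was lost with library size as the sole scaling (adjusted p = 0.0614) and without KO replicate 2 (0.0523), KO replicate 3 (0.0701) or WT replicate 3 (0.0567).

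Among 10 cytoskeletal partners 2 were higher and none lower. *Vim*, the intermediate filament of mesenchymal cells, had an LFC of 0.49 (limma adjusted p = 0.00630), and *Ppfibp1*, liprin beta 1, which binds S100A4, had 0.60 (limma adjusted p = 0.00263). *Myh9*, the non-muscle myosin heavy chain that S100A4 binds, had 3262, 3358, 3749 and 4196 normalized counts across KO replicates 1 to 4, against 4239.9, 2859.6, 2705 and 2881 in WT. WT replicate 1 was above every KO library and the other 3 WT libraries below them (LFC 0.22, limma adjusted p = 0.362, and 0.36 with an adjusted p of 0.0449 without WT replicate 1). Per unit of *Myh9* count, *S100a4* was at 0.116 to 0.167 in KO and 0.0622 to 0.0941 in WT, with no overlap.

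Of 6 partners in calcium handling, which S100A1 binds in muscle, 3 were lower and 1 higher. *Atp2a1*, the calcium pump of fast fibers, was lower in every KO library (LFC -0.72, SE 0.0629, limma adjusted p = 0.000582), and so was *Ryr1*, the calcium release channel (-0.40, SE 0.0733, adjusted p = 0.00847). The third was *Ttn*, the giant spring protein of the sarcomere (-0.23, adjusted p = 0.0429). *Pln*, the brake on the slow-fiber pump, averaged 1119 ± 115 normalized counts in KO, against 651 ± 97.6 in WT (SD, n = 4 each; LFC 0.79, limma adjusted p = 0.00415). The ratio of *S100a1* to *Ryr1* counts, not per length, was 0.0466 to 0.0625 in KO and 0.0322 to 0.0499 in WT, and the 2 ranges overlapped.

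Of 11 cell surface partners and receptors 2 were higher and none lower. *Tlr4*, the innate immune receptor that calprotectin binds, had 544, 593, 561 and 604 normalized counts across KO replicates 1 to 4, against 318, 335, 376 and 306 in WT. The KO libraries were close together and well above WT (LFC 0.79, SE 0.0978, limma adjusted p = 0.00183). *Ager*, the receptor for released S100 proteins, was low in both genotypes, with 12.4 ± 2.26 normalized counts in KO, against 10.1 ± 1.44 in WT (SD, n = 4 each; LFC 0.26, limma adjusted p = 0.673). *Kcnk3*, the TASK-1 potassium channel that binds p11, had 222, 127, 194 and 65.5 normalized counts across KO replicates 1 to 4, against 20.3, 21.1, 22.6 and 13.7 in WT. Every KO library was higher, KO replicate 4 the least, with an LFC of 2.79 (SE 0.365, limma adjusted p = 0.00222). Without KO replicates 2 and 3 together its adjusted p was 0.0539.

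Of 8 other partners 1 was higher and 1 lower. *Cacybp*, the calcyclin-binding protein that pairs with S100A6, averaged 1701 ± 155 normalized counts in KO, against 1325 ± 95.5 in WT (SD, n = 4 each; LFC 0.36, limma adjusted p = 0.0295), but it passed in only 3 of the 8 fits that leave out 1 library (adjusted p = 0.0182 to 0.0787). *Pgm1*, a glycogen enzyme that binds S100A1, had an LFC of -0.28 (limma adjusted p = 0.0161).

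**Figure D4:**
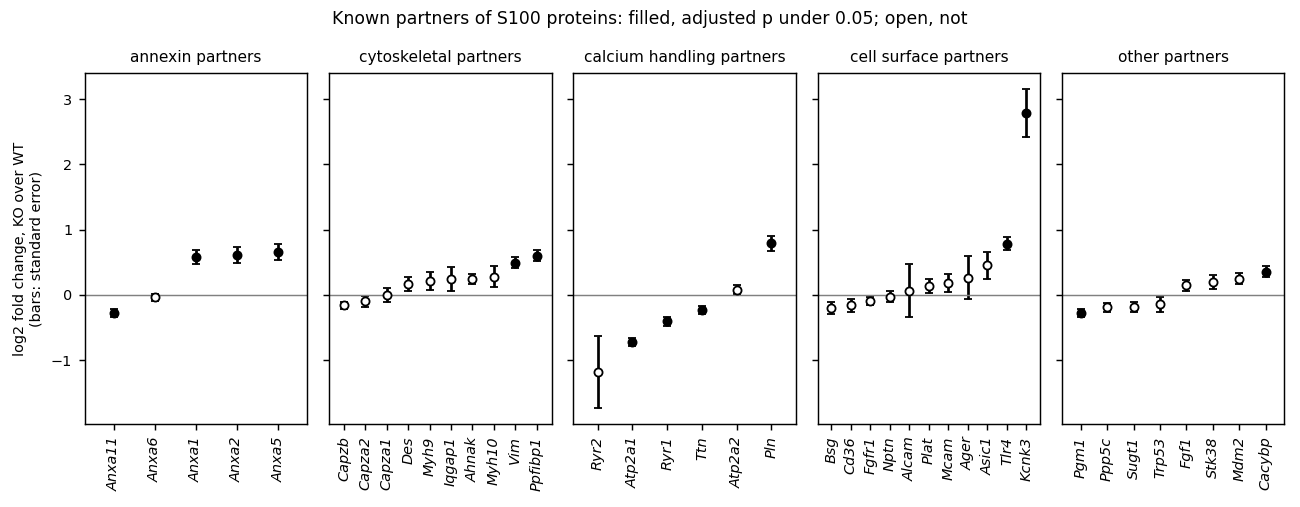
Log2 fold change (KO over WT) of 40 known S100 partners in 5 groups by role, with bars of 1 standard error from limma, filled where the adjusted p was under 0.05. The annexins *Anxa1*, *Anxa2* and *Anxa5* stand near 0.6, *Kcnk3* is the highest at 2.79, and *Ttn*, *Ryr1* and *Atp2a1* are filled below 0.

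Of 29 other EF-hand genes, 28 were measured, 3 were higher and 1 was lower, where 5.16% of all genes were called higher and 3.79% lower, and the median LFC was 0.09. The 3 were *Capn2*, a calpain protease (0.32, limma adjusted p = 0.0173), *Cib1*, an integrin-binding protein (0.54, adjusted p = 0.0259), and *Rcn2*, a reticulocalbin of the secretory pathway (0.33, adjusted p = 0.0409). *Gca*, grancalcin, was lower, with 91.5 ± 18.2 normalized counts in KO, against 161 ± 13.8 in WT (SD, n = 4 each; LFC -0.83, limma adjusted p = 0.0176). Over the 8 fits that leave out 1 library, *Capn2* passed in 7, *Gca* in 6, *Cib1* in 3 and *Rcn2* in 1.

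The chromosome 3 neighbourhood was read as well. Over all genes 5.16% were called higher and 3.79% lower, with a median LFC of -0.01. Between the outermost S100 genes RefSeq lists 92 other genes, among them genes of the skin's outer layer. Of these 10 were measured, *S100a3* and *S100a7a* among them, with a median LFC of 0.52. The 2 called higher were *Sprr1a* and *Lce1f*, both cornified envelope genes at low levels. *Sprr1a* averaged 16.9 ± 7.90 normalized counts in KO, against 1.26 ± 1.95 in WT, and *Lce1f* 9.25 ± 3.08 in KO and 0.205 ± 0.411 in WT (SD, n = 4 each). Of the 20 measured genes that flank the cluster, 10 on each side, 1 was higher (*Oaz3*) and 3 were lower (*Gatad2b*, *Dennd4b* and *Ilf2*), with a median LFC of -0.14.

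Markers of other cells in whole muscle were read beside the S100 genes. The shares of all genes called, to set beside the counts of every marker list, were 5.16% higher and 3.79% lower. For fibroblasts, 5 of 10 markers were higher in KO and none lower, and their summed level was 60003 to 85012 in KO and 41150 to 49525 in WT, without overlap. Of the 3 genes of highest mean normalized count in that list, *Gsn*, which severs actin, had an LFC of 0.60 (limma adjusted p = 0.0161), *Col1a2*, a collagen chain, 0.66 (adjusted p = 0.0228), and *Dcn*, decorin, 0.05 (adjusted p = 0.777). For macrophages, 6 of 10 were higher and none lower, with sums of 5074 to 6675 in KO and 2918 to 4003 in WT. *Lyz2*, the lysozyme of macrophages, which has the highest mean normalized count in the list, had an LFC of 0.84 (limma adjusted p = 0.000883). For adipocytes, 6 of 7 were higher, with a median LFC of 1.76 and sums of 13088 to 22851 in KO and 8586 to 11155 in WT. *Fabp4*, the 1 not called (LFC 0.21, limma adjusted p = 0.213), had the highest mean normalized count in the list and weighed most in these sums. Per 1000 of the fibroblast sum, *S100a4* was at 9.10, 6.90, 7.94 and 5.72 across KO replicates 1 to 4, against 4.87 to 5.74 in WT. Of the KO libraries only replicate 4 lay within the WT range. Per 1000 of the macrophage sum *S100a4* was at 72.8 to 108 in KO and 65.6 to 81.8 in WT, so both ratios overlapped. The same ratios overlapped for *S100a6* and *S100a10*, at 16.5 to 26.7 in KO and 21.5 to 28.3 in WT per 1000 of the fibroblast sum for *S100a6*, and 13.1 to 19.1 in KO and 14.2 to 18.1 in WT for *S100a10*. The part of these cells in the S100 differences was not tested.

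**Figure D5:**
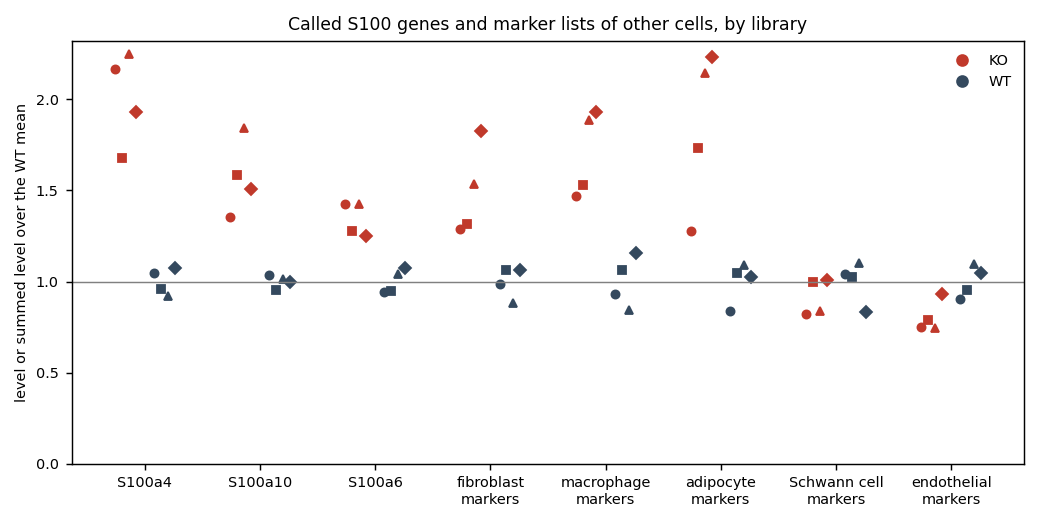
Level of *S100a4*, *S100a10* and *S100a6*, and summed level of 5 marker lists, in each library relative to the WT mean (axis from 0, line at 1), with KO in red on the left and WT in blue on the right of each column and symbols for replicates 1 (circle), 2 (square), 3 (triangle) and 4 (diamond). The 3 S100 genes and the fibroblast, macrophage and adipocyte sums are above WT in all 4 KO libraries, KO replicate 4 is highest for the 3 marker sums, and KO replicate 3 is highest for the 3 S100 genes.

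For the vessel wall, of 7 endothelial markers 1 was lower (*Cdh5*, median LFC -0.38 over the list), and of 7 mural cell markers 2 were lower (*Rgs5* and *Kcnj8*, median LFC -0.11), with none higher. At an unadjusted p under 0.05 from limma, 5 endothelial and 3 mural markers were lower and none higher, and the share of all genes at that threshold was not counted. Of 7 satellite cell markers 2 were lower in KO, none was higher and 5 did not pass. The 2 were *Pax7* and *Megf10*, and the latter is the deleted gene, so its call only reflects the genotype. Of 8 tendon and cartilage markers 7 were measured and 1 was higher (*Thbs4*), with a median LFC of 0.50 and sums of 11895 to 20076 in KO and 8782 to 13272 in WT. None of 6 dendritic cell, 6 measured lymphocyte and 5 erythroid markers was called by limma (2, 0 and 0 at an unadjusted p under 0.05), and the dendritic cell list had a median LFC of 0.61.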

How the data were processed

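Per the labels and the paper's methods, RNA was quantified by Salmon 0.11.3 after Trimmomatic 0.36 on GRCm39, and gene values were imported with tximport and scaled by DESeq2 in R 4.1.2. The deposited per-library value is a normalized count, a signal scaled by the authors with a factor per gene and library. A deposited table of the authors' comparison (mean over libraries, fold change, its error, statistic, p-value and adjusted p) was not used. Rows without a gene name (0.0112% to 0.0150% of each library) were left out. Values near 0 are steps of 1 read, and 24.5% to 39.3% of low values were whole within 0.02 reads, too few to recover counts.

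Values were tested as log2(value + 1) with limma 3.58.1 (trend, genotype alone, two-sided) in R 4.3.3, with Benjamini-Hochberg adjustment over 16382 genes and a threshold of 0.05. A filter on a sum above 5 removed no gene. The fit was tested on simulated data. Promoters (RefSeq, GRCm38.p6) and transcripts (GENCODE M21) were read in Python 3.11.15. No coordinates were converted.

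All 10 S100 genes, other family members, up to 12 called partners of smallest adjusted p and 8 fixed ones, up to 5 called EF-hand genes and up to 3 genes of highest mean per marker list were named, and other called markers, *Ttn* and cluster neighbours were named after their values were seen. The members and all gene lists were chosen with earlier results of these data known. Alternatives were scaling, pseudocount, filter, prior variance, libraries left out, a replicate block, depth and a stricter threshold.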

Additional observations from a re-analysis of the deposited data

Results flagged for a closer look

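In 6 of 66 groups of 4 libraries checked, 1 library lay apart from the other 3 by Dixon's criterion, which chance does in about 1 group in 20. Among the S100 genes these were *S100a9* in KO replicate 2 (9.99 normalized counts), *S100b* in WT replicate 3 (24.4) and *S100a7a* in KO replicate 2 (29.8). Among the partners they were *Ager* in KO replicate 4 (9.05), *Anxa11* in WT replicate 3 (4847) and *Myh9* in WT replicate 1 (4239.9).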

How the results depend on the processing

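Of the 10 S100 genes, 3 were called as reported. The number was 5 with library size alone as scaling, 5 with totals without the 10 most abundant genes, 1 without KO replicates 2 and 3 together, 0 with depth as a covariate, and 3 to 4 with any 1 library left out. Over all genes 1466 were called, against 819 with no trend, 164 without KO replicates 2 and 3 together, 58 with depth, 440 at an adjusted p under 0.01, and 662 (without KO replicate 3) to 1231 with 1 library left out, which leaves fewer samples. Higher and lower calls were 845 and 621 as reported, 1279 and 321 with library size alone, and 1244 and 333 without the 10 most abundant genes. The cause of these shifts was not tested.

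The log2 fold change of *S100a1* was -0.01 as reported, 0.072 with library size alone, 0.069 without the 10 most abundant genes and 0.030 with quantile normalization, and ran from -0.10 (without WT replicate 2) to 0.062 (without WT replicate 3) with 1 library left out. With depth, *S100b* was at -0.053, *S100a7a* at -0.013 and *Myh9* at -0.036, and *S100a7a* ran from -0.027 (without KO replicate 2) to 0.84 with 1 library left out. None of these genes was called as reported.

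The replicate block gave 3 S100 genes and 1278 genes in all. Same-numbered libraries did not deviate together (correlations -0.0675 to -0.0291), and 0 of 4 KO libraries were closest to their own number. *S100a8* and *S100a9* rest on few reads.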
